A study of Homo sapiens with 8 samples.

Results

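The genes described here are 10 members of the IL-1 and IL-36 cytokine system, chosen by name: the ligands IL36G, IL1A, IL1B, IL18 and IL33, the antagonists IL36RN and IL1RN, and the receptor genes IL1R1, IL1R2 and IL1RAP. All 10 were found among the 28518 genes of the count table, and all 10 were among the 14834 genes with enough counts to be tested. They were measured in HaCaT cells, an immortalised human keratinocyte line, from which CARD14 had been knocked out. All 4 groups carried that knockout and received 9 ug of a plasmid with CARD14, T2A and eGFP sequences. Its CARD14 was WT in one group and carried R820W, N737H or I593T in the others. The medium of the 10 cm dishes was changed after 2 h, and cells expressing GFP were collected by sorting at 24 h. Each group had 2 libraries, titled A and B; cells without a plasmid were not analysed here. The series asked which pathways differ between cells with the variants, which it calls hypomorphic, and cells with the WT protein.

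CARD14 is a keratinocyte scaffold that acts on NF-kB through BCL10 and MALT1, and activating CARD14 variants are known in psoriasis. IL-1 alpha and IL-1 beta act through a receptor made of the IL1R1 and IL1RAP products, while the IL1RN product occupies that receptor without signalling and the IL1R2 product binds ligand as a decoy. IL-36 gamma, which keratinocytes make in inflamed skin, acts through a receptor that also uses IL1RAP, and the IL36RN product blocks it. Many of these genes are themselves targets of NF-kB and AP-1 in keratinocytes.

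Of the members, 7, namely IL36G, IL36RN, IL1A, IL1B, IL1RN, IL1R1 and IL1R2, lie on chromosome 2, where IL-1 family genes form clusters. RefSeq's promoter table for GRCh38.p14 held 18 start sites of 9 members, and IL18 was not matched. The 250 bases upstream of 4 of these starts are shown because IL36G and IL1RN were the members called between the letters, and IL1A and IL1B are the agonists that IL1RN opposes. Each is written from 5′ to 3′ on the gene's strand, and capitals mark matches, on either strand, to an AP-1-like motif (TGANTCA) or a kB-like motif (GGGNNNNCC). The windows are IL36G at chr2:112977756-112978005 on the plus strand, IL1B at chr2:112836780-112837029 on the minus strand, IL1A at chr2:112784401-112784650 on the minus strand and IL1RN at chr2:113117721-113117970 on the plus strand.
IL36G: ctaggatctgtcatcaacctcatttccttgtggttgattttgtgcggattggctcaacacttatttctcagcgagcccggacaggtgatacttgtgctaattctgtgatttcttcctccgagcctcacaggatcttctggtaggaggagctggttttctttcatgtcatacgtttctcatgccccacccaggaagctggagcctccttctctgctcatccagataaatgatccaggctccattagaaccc
IL1B: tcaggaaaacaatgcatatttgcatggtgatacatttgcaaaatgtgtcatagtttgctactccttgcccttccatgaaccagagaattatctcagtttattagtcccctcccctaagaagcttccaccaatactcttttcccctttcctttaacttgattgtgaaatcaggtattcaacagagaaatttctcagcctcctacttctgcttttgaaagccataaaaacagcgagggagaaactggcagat
IL1A: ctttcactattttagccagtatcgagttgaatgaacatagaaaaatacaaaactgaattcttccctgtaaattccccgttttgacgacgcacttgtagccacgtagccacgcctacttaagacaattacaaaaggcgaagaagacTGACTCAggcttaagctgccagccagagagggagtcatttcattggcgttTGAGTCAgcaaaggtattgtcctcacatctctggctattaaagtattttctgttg
IL1RN: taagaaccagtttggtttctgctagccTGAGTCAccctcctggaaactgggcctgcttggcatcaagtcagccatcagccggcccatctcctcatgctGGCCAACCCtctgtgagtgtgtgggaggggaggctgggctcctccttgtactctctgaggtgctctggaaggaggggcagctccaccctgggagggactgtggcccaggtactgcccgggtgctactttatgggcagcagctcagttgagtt
The IL1A window held an AP-1-like match beginning at -105 and another at -55, counted from the start site to the first base of the match. The IL1RN window shown held an AP-1-like match at -223 and a kB-like match at -152, and the windows of the other IL1RN starts held neither motif. Neither motif occurred in the IL36G and IL1B windows. Among all 35116 promoter windows of the same length, 48.46% held the kB-like motif and 6.573% the AP-1-like motif, compared with 6 and 3 of the 18 member windows. The IL1A windows overlap and share an AP-1-like match, so these windows are not separate. By gene, 4 and 2 of 9 members held the motifs. The share by gene over all genes was not computed, and the percentages per window are not its equivalent. A match is a description of letters, not a site of binding, and the counts themselves were made on hg19.

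Library totals ranged from 17892608 to 24629860 counts. All 8 keratinocyte markers were expressed, with a summed level of 4210 to 7101 CPM (read counts scaled to the normalised library size). The 5 fibroblast markers summed to at most 1.58 CPM, the 3 endothelial markers to at most 2.80 CPM and the 4 melanocyte markers to at most 3.10 CPM, of which PMEL (mean 1.33) and MLANA (1.17) exceeded 1 CPM. Of 6 immune markers only CD68, which is not restricted to leukocytes, exceeded 1 CPM, with a mean of 63.8, while CD207 was at 0. CARD14 RNA, for which counts cannot tell plasmid from locus, stood at 1127 and 978 CPM in WT (library A, then B), 1190 and 1410 in R820W, 444 and 1005 in N737H and 499.6 and 1394 in I593T. The first principal component of all genes, with 33.3% of the variance, had all 4 A libraries on one side and all 4 B libraries on the other.

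Keratinocytes of this line contained RNA of every member, over a range that set IL1B and IL1RN at the top and IL36RN at the bottom. Divided by exon length in kb, the mean level over 8 libraries was 140 CPM per kb for IL1B (range 92.8 to 268) and 119 for its antagonist IL1RN (75.6 to 205). IL18, a ligand that epithelial cells store as an inactive precursor, followed with 74.8 CPM per kb (59.2 to 88.6). Each of these neighbours overlapped the next in range. IL36G had 17.8 CPM per kb (8.003 to 32.0), below all IL18 values, and its range contained that of the decoy receptor IL1R2 at 16.7 (11.7 to 23.8). IL1A had 5.91 CPM per kb (3.91 to 8.39), IL1RAP 3.46 (3.04 to 3.89) and the signalling receptor IL1R1 2.26 (1.97 to 2.67), with no overlap from IL1R2 down to IL1R1. IL33, a nuclear cytokine of barrier cells, had 1.71 CPM per kb (0.584 to 2.38) and IL36RN 0.697 (0.245 to 1.17), and each overlapped its neighbour above. The members also differed in how widely they varied between libraries. The highest library exceeded the lowest by 4.78-fold for IL36RN, 4.07-fold for IL33 and 4.003-fold for IL36G, by 2.04- to 2.88-fold for IL1B, IL1RN, IL1A and IL1R2, and by 1.497-fold or less for IL18, IL1R1 and IL1RAP.

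**Figure D1:**
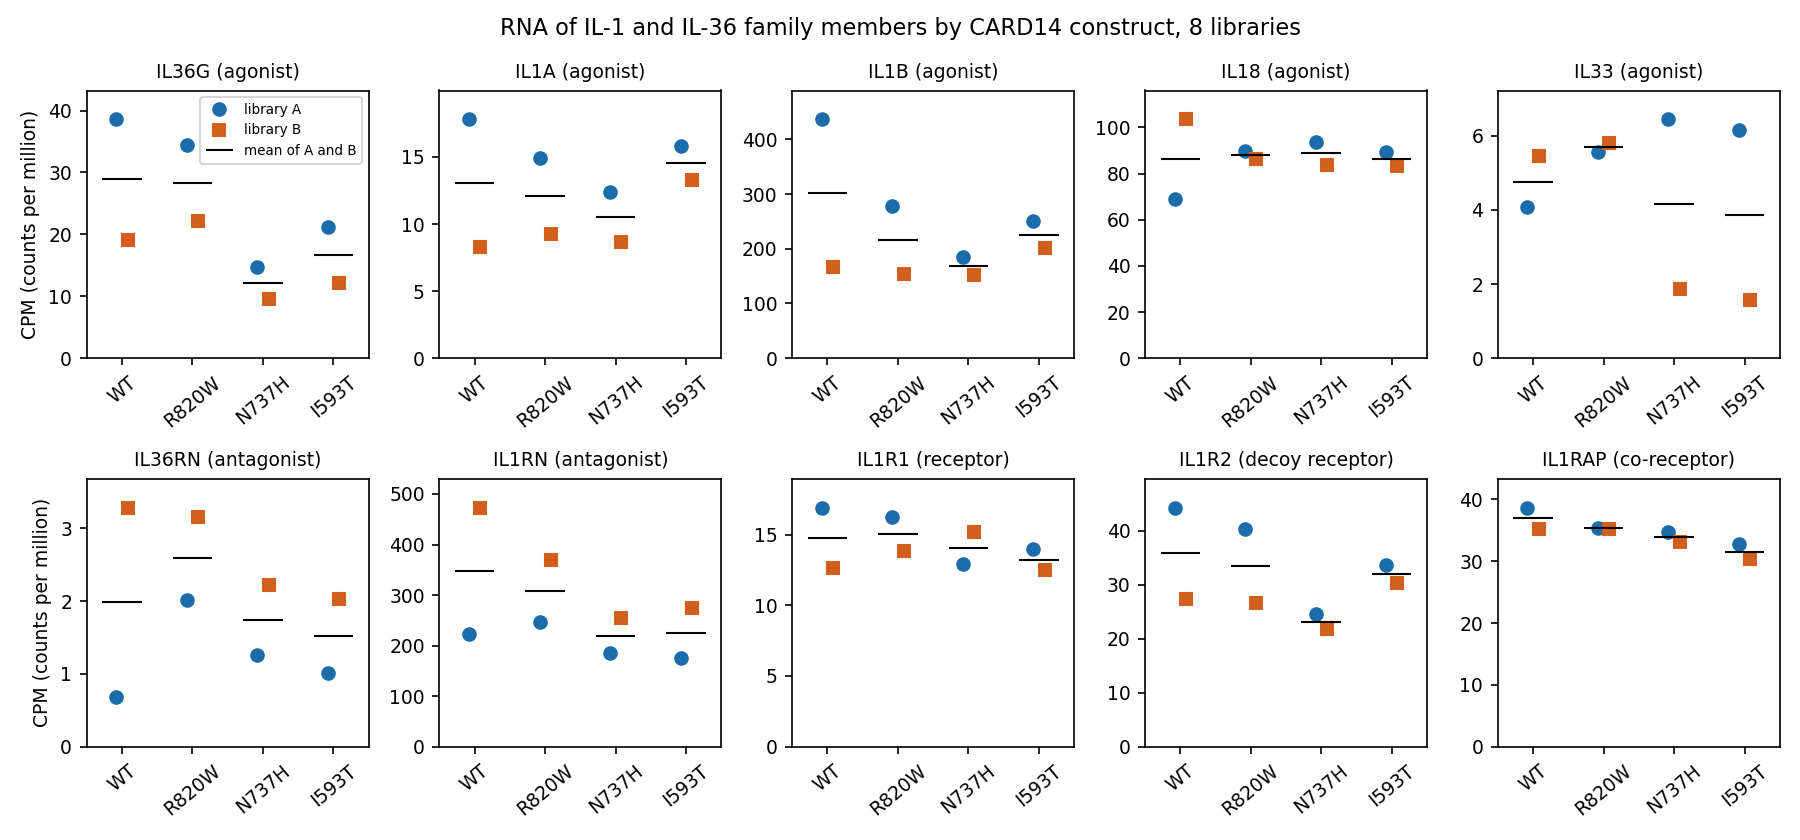
Level of each of the 10 members in each library, in CPM, with library A and library B of each CARD14 construct as separate points. For IL36G, IL1A and IL1B every A point lies above the B point of its construct, and for IL1RN and IL36RN every B point lies above its A point.

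No member passed edgeR's test in any comparison between constructs. In edgeR's quasi-likelihood test with Benjamini-Hochberg adjustment over the 14834 genes, the adjusted p was 1.00 for each of the 10 members in each of the 6 comparisons. The share of all genes called was 0% in R820W vs WT, N737H vs WT, I593T vs WT and the 3 pairs of variants, so the members' count of 0 equals the background. At an unadjusted p under 0.05, edgeR listed 154 genes (1.04%) for R820W, 362 (2.44%) for N737H and 212 (1.43%) for I593T against WT. Among the members these held only IL36G, in N737H against WT. DESeq2 called 0 genes for R820W and N737H and 3 for I593T against WT, none of them a member, and limma voom called 0 in each. With the letter as a replicate block, DESeq2 called 1, 20 and 2 genes in the same order, among them IL36G in N737H (adjusted p = 0.000271), whereas edgeR with that block called 0 in each. The series text mentions 2 independent experiments, but no label assigns libraries to them, so p-values measure only the spread between these libraries. In these bulk samples, fewer cells that express a gene and less RNA per cell cannot be told apart.

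IL36G had the largest difference among the members in the comparison of N737H with WT. Its level was 38.6 CPM in WT A and 19.2 in WT B, 34.4 and 22.2 in R820W, 14.7 and 9.64 in N737H, and 21.1 and 12.2 in I593T. Both N737H libraries lay below both WT libraries, while I593T A lay between the WT libraries and R820W lay within their range. The group means were 28.9 ± 13.7 CPM for WT, 28.3 ± 8.59 for R820W, 12.2 ± 3.60 for N737H and 16.7 ± 6.34 for I593T (SD, n = 2). The log2 difference from WT was -1.24 ± 0.42 (SE) in N737H, with a 95% interval of -2.22 to -0.26, and edgeR gave an unadjusted p of 0.019 and an adjusted p of 1.00. The difference was -1.38 between the A libraries and -0.98 between the B libraries. Without WT A the difference was -0.65, and without WT B it was -1.64. CARD14 RNA was lower in N737H A than in WT A and close to WT in N737H B, and its part in the IL36G difference was not tested. For I593T the IL36G difference from WT was -0.79 ± 0.42, with an interval of -1.76 to 0.17, -0.87 in A and -0.65 in B. For R820W it was -0.03 ± 0.41, and the interval of -0.98 to 0.93 spans a fold of nearly 1 log2 unit in both directions.

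IL1B, the most abundant agonist, was highest in the WT A library. Its level was 437 CPM in WT A and 166 in WT B, 278 and 155 in R820W, 185 and 151 in N737H and 250.2 and 201 in I593T. Among the A libraries WT was highest and N737H lowest, and all A libraries except N737H A exceeded every B library. The log2 difference from WT was -0.84 ± 0.44 in N737H, -0.48 ± 0.44 in R820W and -0.42 ± 0.44 in I593T. In N737H it was -1.24 between the A libraries and -0.14 between the B libraries, and without WT A it was 0.017. IL1A, the other agonist of the same receptor, had 17.8 and 8.30 CPM in WT, 14.9 and 9.29 in R820W, 12.4 and 8.66 in N737H and 15.8 and 13.3 in I593T. Its differences from WT were -0.31 ± 0.40 in N737H, 0.16 ± 0.39 in I593T and -0.11 in R820W, all with overlapping libraries.

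IL18 and IL33, ligands of other receptors of the family, gave no common direction. IL18 ranged only from 69.1 CPM in WT A to 104 in WT B, and the 6 variant libraries, 83.4 to 93.8 CPM, lay between those values. Its differences from WT were at most 0.04 ± 0.20 on the log2 scale. IL33 had 4.08 and 5.45 CPM in WT and 5.56 and 5.81 in R820W, where both libraries lay above both WT libraries. With N737H it had 6.45 and 1.87 CPM, and with I593T 6.16 and 1.58, from 133 and 38 counts and from 153 and 32 counts. Thus IL33 in N737H differed from WT by 0.65 in A and by -1.50 in B, and in I593T by 0.59 and -1.73.

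Of the antagonists, IL1RN encodes the IL-1 receptor antagonist and had levels as high as those of IL1B. Its level was 223 CPM in WT A and 473 in WT B, 246 and 369 in R820W, 185 and 255 in N737H and 175 and 274 in I593T. N737H and I593T had lower values than WT within each letter, but their B libraries exceeded WT A. The log2 differences from WT were -0.66 ± 0.39 in N737H, -0.63 ± 0.39 in I593T and -0.18 ± 0.39 in R820W. IL36RN, the antagonist of IL-36, rested on few reads, with 15 counts in WT A and 68 in WT B. It had 0.687 and 3.28 CPM in WT, 2.02 and 3.15 in R820W, 1.26 and 2.21 in N737H and 1.01 and 2.03 in I593T, and both WT libraries lay outside the range of the variants. Its standard errors against WT were 0.71 to 0.72 on the log2 scale, the widest of the 10 members.

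The receptor genes varied less. IL1R2, which encodes the decoy, had 44.2 and 27.3 CPM in WT, 40.2 and 26.5 in R820W, 24.6 and 21.7 in N737H and 33.7 and 30.2 in I593T. Both N737H libraries lay below both WT libraries, with a log2 difference of -0.63 ± 0.28, an interval of -1.28 to 0.02, and an unadjusted p of 0.0565 in edgeR. Within letters the difference was -0.84 (A) and -0.33 (B), and leaving out WT A gave -0.24. IL1RAP, the shared accessory chain, had 38.6 and 35.2 CPM in WT, 35.4 and 35.2 in R820W, 34.7 and 33.1 in N737H and 32.8 and 30.3 in I593T. It was below both WT libraries in both libraries of N737H and of I593T, by no more than 0.24 on the log2 scale in any pair of the same letter with I593T. Its difference from WT in I593T was -0.23 ± 0.16, with an interval of -0.59 to 0.13. IL1R1 had 12.5 to 16.9 CPM, and the construct groups overlapped.

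Counts of libraries that did not overlap were read against all genes. With N737H, 3 of the 10 members (IL36G, IL1R2 and IL1RAP) had both libraries below both WT libraries, as did 12.4% of all genes tested. With I593T this was 1 member (IL1RAP), against 11.0% of all genes, and with R820W none, against 12.8%. One member (IL33) had both R820W libraries above WT, against 12.6%. By fitted direction, 9 of 10 members were lower than WT with N737H, 8 with I593T and 6 with R820W. The median log2 difference was -0.25 with N737H (all genes -0.03), -0.26 with I593T (all genes -0.02) and -0.05 with R820W (all genes -0.01). The 3 comparisons share the WT libraries, so their directions are not independent.

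**Figure D2:**
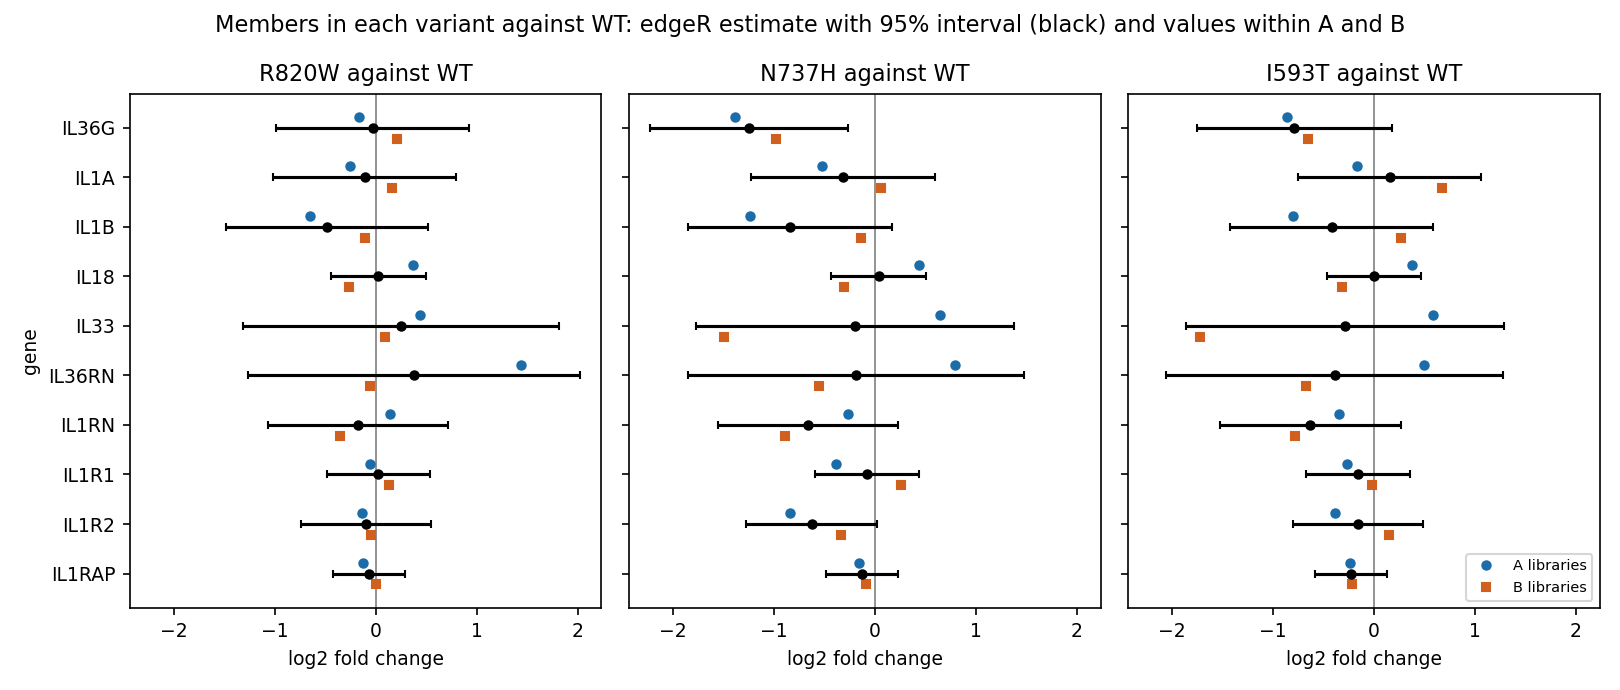
Fitted log2 difference of each member from WT for the 3 variants, with 95% intervals, and the values within letter A and letter B as separate markers. Only the interval of IL36G in N737H excludes 0 before adjustment. The letters have opposite signs with all 3 variants for IL36RN, IL1A and IL18. They also lie apart for IL1B, and for IL33 with N737H and I593T.

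Between the variants, IL36G again had the smallest p. It was higher in R820W than in N737H by 1.22 ± 0.42 on the log2 scale, with an interval of 0.24 to 2.19, 1.22 in A and 1.20 in B. EdgeR gave an unadjusted p of 0.021 and an adjusted p of 1.00, and 242 genes (1.63%) had an unadjusted p under 0.05 in that comparison. With the replicate block the adjusted p was 0.000146 in DESeq2, which called IL36G, and 0.41 in edgeR, which did not. Between R820W and I593T the IL36G difference was 0.76 ± 0.42, with an interval of -0.20 to 1.73. N737H and I593T differed most by p in IL1R2, by -0.46 ± 0.28 with an unadjusted p of 0.137 and an adjusted p of 1.00 in edgeR. CARD14 RNA was higher in both R820W libraries than in either N737H library, and its part in these differences was not tested. Of the 10 members 9 were higher with R820W than with N737H, with a median of 0.41 against -0.02 for all genes.

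With construct and letter in 1 edgeR fit, IL36G fell from A to B and IL1RN rose, and IL36RN, IL1A, IL1B and IL33 had values of similar or larger size that missed the adjusted threshold. In all, 480 of 14834 genes (3.24%) were called between the letters, 254 (1.71%) higher in B and 226 (1.52%) lower, against 2 of the 10 members, 1 in each direction. At an unadjusted p under 0.05, edgeR listed 6 members (IL36G, IL36RN, IL1A, IL1B, IL1RN and IL1R2) and 23.0% of all genes. B was lower than A in 4 of 4 constructs for 5 members (IL36G, IL1A, IL1B, IL1R2 and IL1RAP), against 17.8% of all genes. B was higher in 4 of 4 constructs for both antagonists, IL36RN and IL1RN, against 15.2% of all genes. The median over the members was -0.28, and over all genes 0.03. The count of 480 was 0 without R820W A or R820W B, 25 without I593T A, 32 without I593T B, 965 without WT A and 1138 without WT B.

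Among the agonists, IL36G averaged 27.2 ± 11.2 CPM in A and 15.8 ± 5.88 in B (SD, n = 4 libraries of 4 constructs). Its B minus A difference was -0.76 ± 0.11, with an interval of -1.03 to -0.49 and an edgeR adjusted p of 0.0238. By construct it was -1.01 in WT, -0.63 in R820W, -0.61 in N737H and -0.79 in I593T. Thus IL36G was lower in B with every construct, although WT B and R820W B exceeded N737H A. The call was lost when 1 library of R820W or I593T was left out, with edgeR adjusted p-values of 0.11 to 0.158. IL1B averaged 287 ± 107 CPM in A and 168 ± 22.7 in B, a difference of -0.71 ± 0.19 with an edgeR adjusted p of 0.0876. IL1B differed by -1.39 in WT and -0.84 in R820W, but by -0.29 in N737H and -0.32 in I593T. Leaving out a WT library brought it under the threshold, with edgeR adjusted p-values of 0.0483 without WT A and 0.0289 without WT B. IL1A differed by -0.64 ± 0.16 (edgeR adjusted p = 0.0789), from 15.2 ± 2.26 to 9.88 ± 2.29 CPM. For IL33 the difference was -0.76 ± 0.44 (edgeR adjusted p = 0.344), with 0.41 in WT and 0.06 in R820W against -1.74 in N737H and -1.90 in I593T. IL18 did not differ beyond its spread, at 0.06 ± 0.14.

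The antagonists had the opposite direction. IL1RN averaged 207 ± 33.2 CPM in A and 343 ± 100.1 in B, a difference of 0.70 ± 0.12 with an interval of 0.42 to 0.97 and an edgeR adjusted p of 0.0312. It was 1.09 in WT, 0.58 in R820W, 0.46 in N737H and 0.65 in I593T. All B libraries lay above all A libraries for IL1RN, the lowest B value being 255 CPM and the highest A value 246. This call too was lost without 1 library of R820W or I593T, with edgeR adjusted p-values of 0.165 to 0.211. IL36RN differed by 1.15 ± 0.33, with an edgeR adjusted p of 0.104, from 1.24 ± 0.568 to 2.67 ± 0.639 CPM. Every B library again exceeded every A library, although 2.02 CPM in R820W A and 2.03 in I593T B lay almost together. The share of all genes with such a full separation of the letters was not computed, so it is not shown to be particular to the antagonists. Of the receptors, IL1R2 differed by -0.41 ± 0.13 (edgeR adjusted p = 0.12), IL1R1 by -0.15 ± 0.14 and IL1RAP by -0.08 ± 0.09. CARD14 averaged 815 ± 398 CPM in A and 1197 ± 238 in B, a difference of 0.68 ± 0.27 that missed the threshold (edgeR adjusted p = 0.197). Without WT A it was 0.97 (edgeR adjusted p = 0.0276) and without WT B 0.95 (edgeR adjusted p = 0.0162), both past the threshold. Summed keratinocyte markers ranged from 4983 to 7101 CPM in A and from 4210 to 6640 in B, and summed immune markers from 48.7 to 65.8 and from 55.3 to 82.3. The part of CARD14 level and of these markers in the letter difference was not tested.

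**Figure D3:**
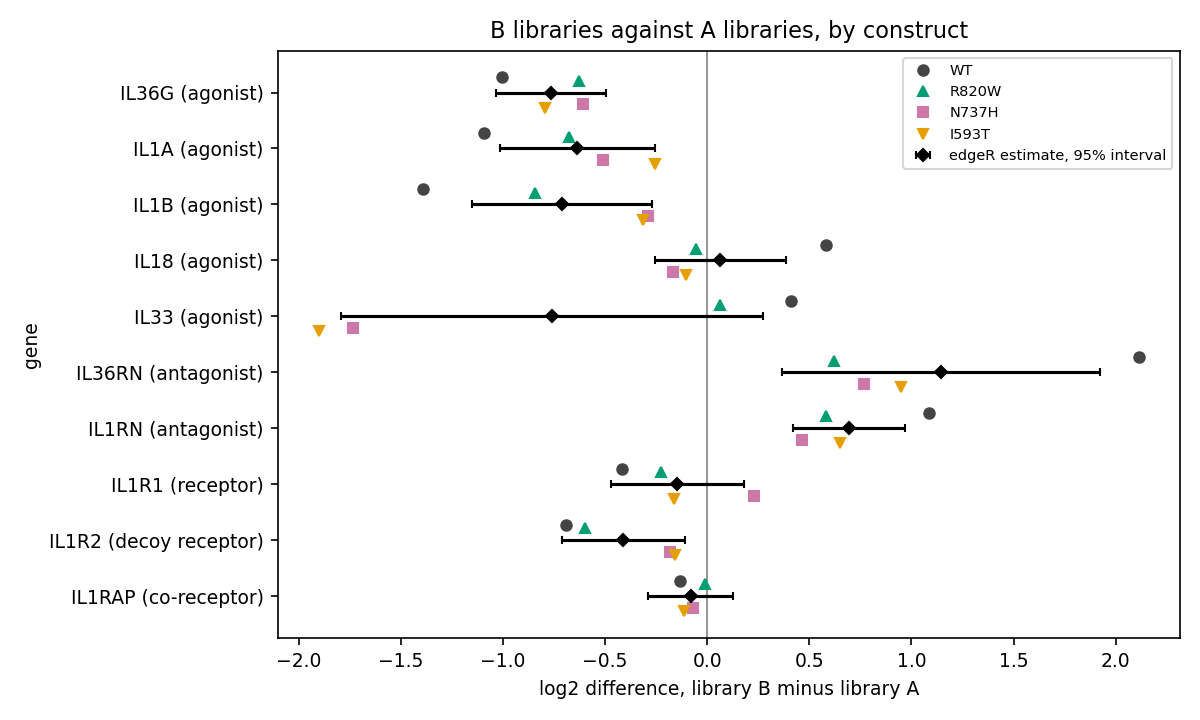
Difference in log2 CPM between library B and library A of the same construct for each member, 1 point per construct. All 4 points of IL36G, IL1A, IL1B, IL1R2 and IL1RAP lie below 0 and all 4 points of IL36RN and IL1RN above 0, while those of IL33 split by construct.

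Agonist and antagonist were also set against each other within each library. IL1RN had 0.510 counts per IL1B count in WT A, 0.887 in R820W A, 0.998 in N737H A and 0.699 in I593T A. In the B libraries the ratio was 2.84, 2.39, 1.68 and 1.37 in the same order. Thus IL1B was the more counted gene in all 4 A libraries and IL1RN in all 4 B libraries. In N737H A the counts were almost equal, at 3821 for IL1B and 3812 for IL1RN. The B to A fold of this ratio was 5.58 in WT, 2.69 in R820W, 1.69 in N737H and 1.95 in I593T. For IL36RN to IL36G the ratio was 0.0178, 0.0588, 0.0855 and 0.0476 in A and 0.171, 0.142, 0.230 and 0.167 in B. IL36G therefore exceeded its antagonist in counts in every library, and the B to A fold was 9.63 in WT and 2.41 to 3.5 in the variants. WT had the lowest A ratio and the largest fold in both pairs, a statement about 1 library of each letter. The IL1RN to IL1A ratio had B to A folds of 4.56 in WT and 1.87 to 2.41 in the variants, and the ratio of decoy IL1R2 to IL1R1 had B to A folds of 0.750 to 1.01. These ratios were not tested, and they compare counts of genes that differ in length. IL1RN has 2.312 kb of exons against 1.631 kb for IL1B, and per kb the order of these genes in I593T B does not hold.

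**Figure D4:**
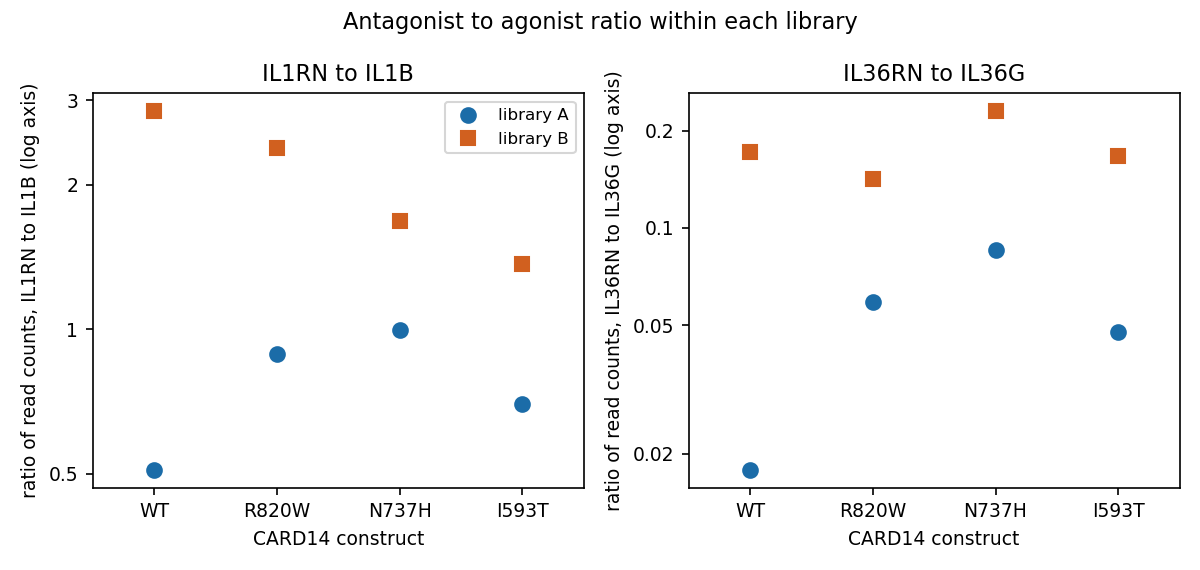
Ratio of antagonist to agonist read counts within each library, IL1RN to IL1B and IL36RN to IL36G, on log axes by construct. All B points lie above all A points in both panels, and the gap between the letters is widest in WT.

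The genes whose profiles over the 8 libraries lay nearest to each member were found by the root-mean-square distance of centred log2 CPM, among 9583 or 9584 genes with a mean of at least 5 CPM. All profiles share the same libraries, including the split by letter. For IL36G, whose own SD was 0.64, the nearest were PLAU, the urokinase plasminogen activator (0.20), and SDCBP2 (0.22). For IL1B, with an SD of 0.49, SERPINB2, an inhibitor of plasminogen activators, was among them (0.11). IL1A lay nearest to TGFA, a ligand of the EGF receptor (0.14), and TFPI2 (0.14). IL1RN lay nearest to TSC22D3, a glucocorticoid-induced gene (0.11), and ABO (0.12), and IL36RN to IDO1, a tryptophan-degrading enzyme (0.19), and MACROD2 (0.22). IL33 had no close neighbour, with S100A9 and KYNU both at 0.33 against an SD of 0.73. IL1R2 lay nearest to MAOA (0.11) and MYO10 (0.12). IL18 (HEXIM1 and HSCB), IL1R1 (UGGT1 and SUCO) and IL1RAP (VAMP7 and NBR1) had own SDs of 0.10 to 0.16 and distances of 0.03 to 0.06.

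The rest of the pathway was read from 6 lists of genes. No gene of any list was called between constructs, where 0% of all genes was called. Of 5 other ligands and binding proteins only IL37 and IL18BP were tested, and IL36A had no counts. IL37, an anti-inflammatory member of the family, fell by 1.80 ± 0.20 on the log2 scale from A to B (edgeR adjusted p = 0.0109), from 35.95, 15.3, 13.2 and 24.5 CPM in A (WT, R820W, N737H, I593T) to 6.85, 5.22, 5.51 and 6.23 in B. Its direction was that of the agonists IL36G, IL1A and IL1B, and all A values lay above all B values. How many of all genes separate in this way was not computed. The letter call of IL37 was also lost without 1 library of R820W or I593T, with edgeR adjusted p-values of 0.0608 to 0.0951. IL18BP, which neutralises IL-18, averaged 0.614 CPM. Of 7 other receptor genes 4 were tested and none was called between letters. The highest were IL1RL1, the IL-33 receptor, with a mean of 61.0 CPM, and SIGIRR, an inhibitory receptor, with 18.3.

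No signalling or processing gene was called. Of 17 tested genes of receptor signalling, led in level by the ubiquitin-conjugating genes UBE2V1 (531 CPM) and UBE2N (329 CPM), 16 were lower than WT with N737H, with a median of -0.19 (all genes -0.03) and 0 called. Of 16 tested genes for processing and release, led by the calpains CAPN2 (252 CPM) and CAPN1 (133 CPM), 13 were lower with N737H, with a median of -0.16. All 16 were higher with R820W than with N737H, with a median of 0.20 against -0.02 for all genes, and 0 called. These differences ran from 0.015 ± 0.25 (SE) to 0.85 ± 0.44, and the 16 genes share the same libraries. Between letters these lists had medians of -0.02 (8 higher, 9 lower) and -0.02 (7 higher, 9 lower), and none was called. The CARD14 partners, 9 genes led by CARD14 itself and BCL10 (111 CPM), had 0 called in any comparison.

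Genes known to be induced by IL-1 or IL-36 in keratinocytes were mostly lower in the B libraries. The list was chosen with earlier results of these data known, so its values beside those of all genes are descriptive only. Of 34 tested, 26 were lower than WT with N737H (median -0.63, all genes -0.03), 23 with I593T (median -0.21) and 19 with R820W (median -0.06), with 0 called. Between letters 27 were lower and 7 higher in B, with a median of -0.48 against 0.03 for all genes, and 10 were called, all lower, where 1.52% of all genes were called lower. These 10 were the chemokines CXCL8 (listed as IL8), CXCL1, CXCL5 and CXCL6, the cytokines IL6, TNF and IL23A, the survival gene BIRC3, the elastase inhibitor PI3 and the protease MMP10, and each was lower in B in 4 of 4 constructs. CXCL8 had 609, 388, 293 and 429 CPM in A (WT, R820W, N737H, I593T) and 131, 167, 120 and 138 in B, a fall of 1.59 ± 0.17 on the log2 scale (edgeR adjusted p = 0.00985). PI3 had 135, 138, 87.2 and 121 CPM in A and 54.4, 42.9, 27.01 and 39.0 in B (fell by 1.58 ± 0.10, edgeR adjusted p = 0.00287). The A and B libraries of both genes did not overlap, and the share of all genes with that separation was not computed. IL6 fell by 1.43 ± 0.14, IL23A by 1.06 ± 0.11, TNF by 0.83 ± 0.11 and CXCL5 by 1.74 ± 0.32. MMP1, a collagenase and the most abundant gene of the list at 814 CPM, was not called and differed by 0.41 ± 0.17. It was called higher in B without WT A (0.62, edgeR adjusted p = 0.0186) and without WT B (0.60, edgeR adjusted p = 0.0134). With N737H the fitted differences from WT were 0.20 for IL6, 0.16 for TNF and -1.94 for CXCL5. The count of 10 fell to 0 without R820W A or R820W B, to 1 without I593T A and to 2 without I593T B.

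**Figure D5:**
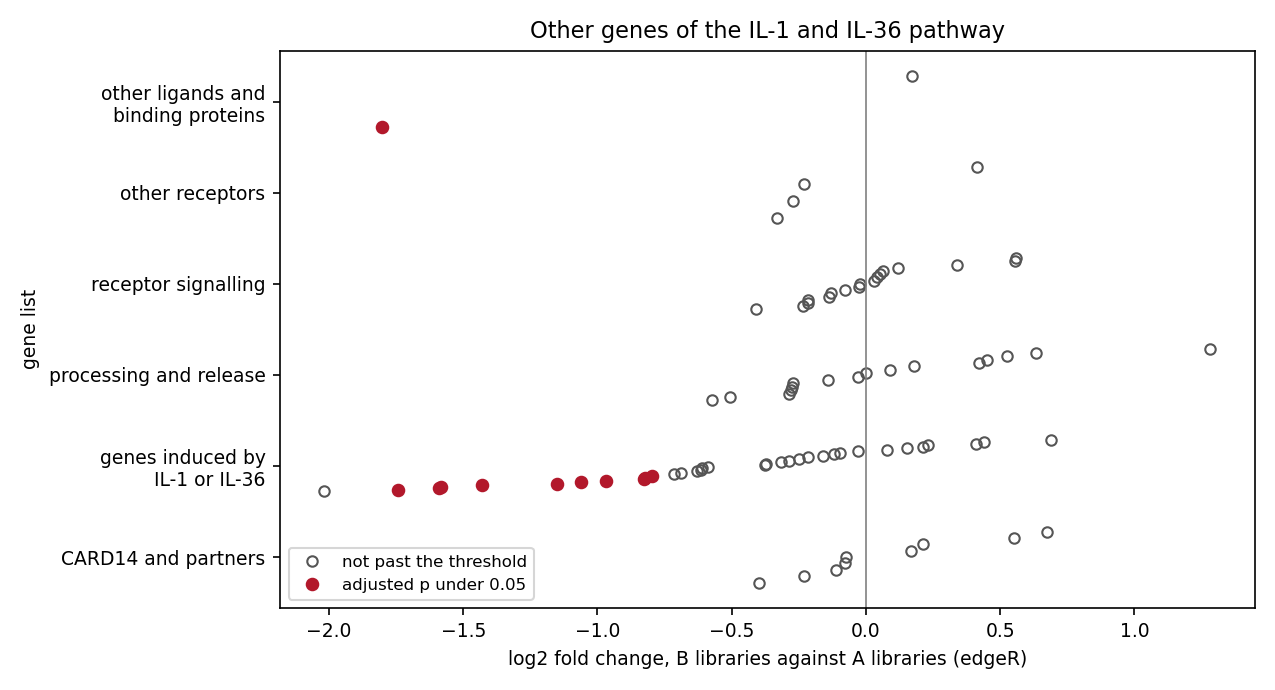
Fitted log2 difference between B and A libraries for the tested genes of the pathway lists, 1 point per gene, with genes past the adjusted threshold marked. The 10 marked genes of the IL-1 and IL-36 induced list and IL37 lie below 0, and the signalling and processing genes lie around 0.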

How the data were processed

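The authors deposited a table of integer counts, not normalised, with gene symbols and 1 column for each of 8 libraries, per the file headers. Per the submitters' processing notes the build was hg19, and FastQC, MACS2 and DESeq2 were used, with no version or role stated. The sources used here name no aligner, counter, annotation or strand setting, so reads shared between overlapping or related genes cannot be checked. The members and lists were chosen with earlier results of these data known. RNA was extracted with mirVana and libraries were made with a NEBNext low-input kit, per the labels' protocols.

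Genes were kept by filterByExpr (14834 of 28518 genes, 99.93% of counts), normalised by TMM and tested two-sided with edgeR 4.0.16 (R 4.3.3) quasi-likelihood fits of group means on all 8 libraries, with 4 residual degrees of freedom. The letter comparison added the letter term. P-values were adjusted by Benjamini-Hochberg over all genes tested, with a threshold of 0.05. CPM used normalised library sizes, and differences within a letter are log2 CPM with a prior count of 2. Lengths per gene are union exons of GENCODE, used for levels only. CXCL8 and GSDME were found under the older symbols IL8 and DFNA5. The fits were tested on simulated data with changes larger than any fitted for a member. The simulation for the construct fit had no letter difference, so it does not cover effects of the size reported here. Every pair of libraries differed beyond sampling noise (smallest chi-square per gene 6.17). Named were the 10 members, CARD14, list genes past the threshold, the 2 most abundant genes per list, the member of smallest p per pair of variants, and the 2 nearest profiles per member. Some items are withheld for evaluation and are not reported here. Alternatives were RLE scaling, no filter, a filter of 10 counts in 6 libraries, DESeq2 1.42.0, limma 3.58.1 voom, the replicate block, removal of CARD14, only the groups compared, no group terms, and each library left out.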

Additional observations from a re-analysis of the deposited data

Results flagged for a closer look

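For 3 members every variant library lay on one side of WT among the A libraries and on the other side among the B libraries. The share of all genes with this pattern was not computed, so the count of members has no background beside it. For IL36RN the mean of the 3 variants minus WT, in log2 CPM, was 0.91 in A and -0.43 in B. The IL1A values were -0.32 (A) and 0.30 (B), and the IL18 values 0.40 (A) and -0.29 (B). The 3 variants share 1 WT library within each letter. The difference between the letters in these contrasts was not tested.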

How the results depend on the processing

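With 2 libraries per group, standard errors against WT ran from 0.16 (IL1RAP) to 0.72 (IL36RN) on the log2 scale, and IL36RN and IL33 rested on the fewest counts. Over 64 results for members and named list genes, 905 of 1025 alternatives kept direction and side of the threshold, 52 lost a call, 13 gained one and 55 turned the sign. All alternatives run kept IL36G lower in N737H than in WT and higher in R820W than in N737H.

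With no filter, 2 genes were called for R820W, 2 for N737H and 8 for I593T against WT, 8 for R820W vs N737H, 10 for R820W vs I593T, 11 for N737H vs I593T and 760 between the letters. DESeq2 called 3 for I593T vs WT, 3 for R820W vs N737H, 1 for N737H vs I593T and 1288 between the letters, and without group terms edgeR called 1324. Leaving out 1 library gave 0 to 2 for I593T vs WT, R820W vs I593T and N737H vs I593T, and 0 to 1138 between the letters, with 0 without R820W A or R820W B, 25 without I593T A, 32 without I593T B, 965 without WT A and 1138 without WT B. The cause was not tested.

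With the letter as a replicate block, edgeR called 1 gene for R820W vs N737H. The block in DESeq2 called 1 for R820W, 20 for N737H and 2 for I593T against WT, 28 for R820W vs N737H, 4 for R820W vs I593T and 2 for N737H vs I593T. IL36G passed in that DESeq2 fit for N737H vs WT (-1.20, adjusted p = 0.000271) and R820W vs N737H (1.20, adjusted p = 0.000146), and not in edgeR's block (adjusted p = 0.724 and adjusted p = 0.41). The block turned IL36G in R820W vs WT to 0.016 in edgeR and 0.0087 in DESeq2, and IL36RN in N737H vs WT to 0.0011 and 0.019. No label ties a letter to an experiment and each pair of groups shares only 2 letters, so the main fit did not take the letters to pair the libraries. Deviations of libraries with the same letter correlated at 0.0242 for WT with N737H and at 0.312 to 0.41 for the other pairs of groups. The main fit therefore leaves variation shared by a letter in its standard errors. For IL36G in N737H vs WT the edgeR standard error was 0.42 without the block and 0.16 with it.

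Other reversals were IL18 in I593T vs WT with no filter (-0.0029), IL36G in R820W vs WT with the stricter filter (0.0091) and voom (0.034), and IL36RN in N737H vs WT with voom (0.16). IL36G between letters missed the threshold without group terms (edgeR adjusted p = 0.139), and MMP10 with the stricter filter (edgeR adjusted p = 0.054). IL1B between letters passed with no filter (adjusted p = 0.036), DESeq2 (adjusted p = 0.00405) and no group terms (adjusted p = 0.048), and IL1A with DESeq2 (adjusted p = 0.023) and no group terms (adjusted p = 0.0465). Log2 differences with 1 library left out are given as ranges where the sign turned. In R820W vs WT they were IL36G -0.45 to 0.56, IL36RN -0.35 to 1.90, IL1A -0.56 to 0.55, IL1B -1.02 to 0.38, IL18 -0.23 to 0.35, IL1R2 -0.45 to 0.29, IL1RAP -0.13 to 0.0036, IL1RN -0.62 to 0.46 and IL1R1 -0.17 to 0.25. In N737H vs WT they were IL1A -0.74 to 0.34, IL1B -1.36 to 0.017, IL18 -0.22 to 0.38, IL1R1 -0.26 to 0.15, IL36RN -0.92 to 1.34 and IL33 -1.38 to 0.47. In I593T vs WT they were IL1B -0.94 to 0.44, IL18 -0.26 to 0.33, IL1R1 -0.34 to 0.064, IL1R2 -0.46 to 0.23, IL36RN -1.12 to 1.13, IL1A -0.28 to 0.81, IL1RN -1.07 to 0.018 and IL33 -1.59 to 0.37. In B vs A they were IL18 -0.13 to 0.14, UBE2N -0.046 to 0.13, IL18BP -0.10 to 0.50, UBE2V1 -0.082 to 0.029 and CAPN2 -0.058 to 0.24.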
